A study of Homo sapiens with 5 samples.

Results

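Genes were sought whose signal set the 2 arrays of MHH-ES-1 cells given the 5p arm of the microRNA miR-483 apart from the other 3 arrays of the same cells, 2 with a scrambled control and 1 with the 3p arm. A gene was taken when both miR-483-5p arrays lay on one side of all 3 others, and every probe set of the gene was then read for the same pattern. The series holds 5 arrays, so the arm rests on 2 of 5. Of 14592 genes measured, 1986 had both miR-483-5p arrays above all others (13.6%) and 2075 had both below (14.2%).

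A microRNA hairpin is cut into a duplex whose arms, 5p and 3p, have different seeds and so pair with different messenger RNAs. The chosen arm guides an Argonaute protein to matching sites, mostly in the tail of a transcript, where decay of the transcript and reduced translation follow. The hairpin of miR-483 lies in an intron of IGF2, a growth factor gene that is imprinted and active in fetal tissue and in several childhood tumours. A mimic is a synthetic duplex that supplies 1 arm in excess, and direct targets of that arm are expected among the transcripts that go down. Ewing sarcoma is a tumour of bone and soft tissue driven in most cases by the fusion protein EWSR1-FLI1, and MHH-ES-1 is an established line of it.

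Cells of all groups were grown alike, given a mimic at 50 nM with a lipid reagent and harvested after 48 h, and the groups were miR-483-5p (n = 2), scrambled control (n = 2) and miR-483-3p (n = 1). The second array of each pair is described as a repeat of the first, without a statement that it came from a separate culture. The spread within a pair, and every p-value built on it, may therefore be technical. The single miR-483-3p array has no replicate of its own. Untransfected cells and the level of the mature microRNA were not analysed here.

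Arrays had been scaled to a common trimmed mean of 150, and pairs correlated at r = 0.977 to 0.983 across genes, which are not independent. Median signals ran from 39.2, in the first miR-483-5p array, to 44.9, in the second. The median absolute difference between arrays of a pair came to 0.17 between the miR-483-5p arrays and 0.16 between the controls on the log2(signal + 32) scale used throughout, where an offset of 32 damps the noise of dim probe sets and understates their differences. The ratio of the 3' to the 5' probe set of GAPDH, which reads RNA integrity, stood at 1.094 and 1.102 for miR-483-5p, against 1.016 and 0.996 for the controls and 1.064 for miR-483-3p. It thus separated the same arrays as the genes described here, and its part in them was not tested. The same ratio for ACTB overlapped, at 1.182 and 1.073 against 1.065, 1.040 and 1.093. Of 10 Ewing sarcoma markers, 9 were measured, with summed signals of 20800 to 23000 per array. Of these 9, 2 lay above all other arrays (CCND1 and EWSR1) and 4 below (NPY1R, LIPI, NKX2-2 and STEAP1; 44.4%, against 14.2% of all genes measured), with a median log2 difference of 0.03. NPY1R, a neuropeptide receptor gene, had 2351.6 and 1607.7 for miR-483-5p, against 2807.4 and 2913.2 for the controls and 2679.6 for miR-483-3p. EWSR1 and NKX2-2 overlapped once arrays were centred on their medians, and STEAP1 overlapped after quantile normalization. The surface protein gene CD99 ran from 4381 to 5093 and the fusion target NKX2-2 from 2444 to 2920. Markers of other cell types were mostly dim: 2 of 9 epithelial, 2 of 10 blood and 3 of 8 endothelial and muscle markers passed the filter on low values, a mean signal of 27.2. Their summed signals overlapped between the groups, at 256 and 367 against 319 to 336 for the epithelial, 241 and 343 against 192 to 275 for the blood, and 322 and 286 against 292 to 297 for the endothelial and muscle markers. No marker was listed at 0, but PTPRC, CDH1 and MYOD1 stayed at or under 25.5 in each array.

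No probe set passed limma's test of the 2 miR-483-5p arrays against the other 3. Of 54613 probe sets, 0 had an adjusted p under 0.05 (0.0%), the lowest such value being 0.654. Without adjustment 3877 probe sets had p under 0.05 (7.10%), 1776 higher and 2101 lower with miR-483-5p. The contrasts with the control alone and with the miR-483-3p array alone, which share the miR-483-5p arrays, also gave 0 calls, with lowest adjusted p-values of 0.621 and 0.784. For any single gene an exact permutation test of 2 arrays against 3 cannot go below p = 0.2. Genes are therefore described below by the values of their arrays, and "above" or "below" means that the arrays did not overlap, not that a test was passed.

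Separation was common, and mostly narrow. Of all orderings of 5 arrays, a share of 0.2 puts a given 2 on one side of the other 3. Separation alone therefore marks no gene as changed. Over all 54613 probe sets 23.1% separated, 5575 above (10.2%) and 7054 below (12.9%). Centring each array on its median instead turned that split to 6153 above and 5244 below, so which direction was the more frequent depends on the scaling. Leaving out any 1 array, which makes separation easier by construction, gave 8458 to 14749 above and 10371 to 17902 below. For genes, each read through its brightest probe set, 1592 of the 1986 above and 1505 of the 2075 below kept their side under median centring. The gap between the nearest miR-483-5p array and the nearest other array had a median of 0.078 above and 0.092 below on the log2 scale. Gaps of at least 0.5, a step of 1.41-fold, were seen in 15 genes above and 37 below. In 304 genes above and 435 below the gap was wider than the spread within either set of arrays. Close to the rule, 533 genes lay inside it by no more than 0.02, with a median absolute difference of 0.18, and 647 lay outside it by as little, with a median of 0.15. Of the 14592 genes, 574 were higher at an unadjusted p under 0.05 (3.93%) and 747 were lower (5.12%). All these counts cover genes whose brightest probe set passed the filter, and 5185 further genes did not.

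**Figure D1:**
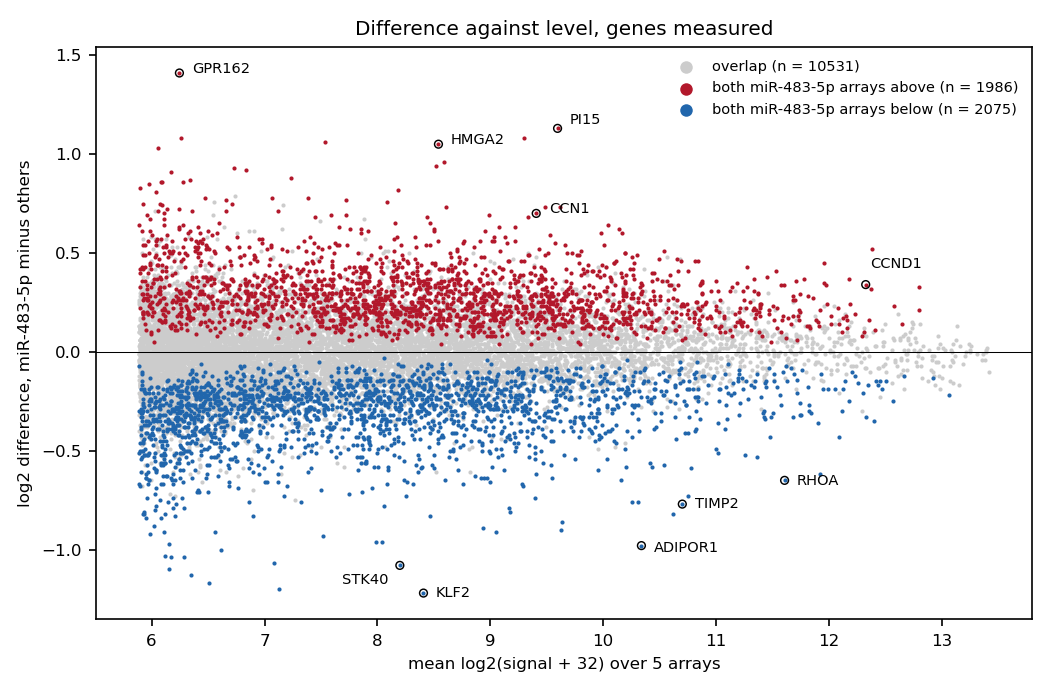
Log2 difference between the mean of the 2 miR-483-5p arrays and the mean of the 3 other arrays (vertical axis) against the mean log2(signal + 32) over 5 arrays (horizontal axis), 1 point per gene measured, with genes coloured by whether the miR-483-5p arrays lay above (n = 1986), below (n = 2075) or overlapped the rest. Most separating genes lie within 0.5 of 0, and the named genes, from GPR162 at 1.41 to KLF2 at -1.22, stand outside that band or, like CCND1 at 0.34, far to the bright side.

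Genes above the other arrays had a longer median span, and genes below a shorter one, than all genes measured. The median gene span in the RefSeq annotation was 37.8 kb for genes above, with quartiles of 16.4 and 86.3. It was 19.8 kb for genes below, with quartiles of 7.50 and 51.6, and 28.2 kb over all genes measured. Both sets were also brighter than average, with a median signal of 292 above and 202 below against 167 over all genes. These are descriptions without a test, and span, level and probe position on the transcript were not separated from one another.

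The gene with the widest gap above was GPR162, an orphan receptor gene, with signals of 92.0 and 117.9 for miR-483-5p, against 15.1 and 24.3 for the controls and 19.1 for miR-483-3p. The log2 difference came to 1.41 (SE 0.14, n = 2 and 3), with a gap of 1.14. All 3 other arrays lay under the filter's signal of 27.2, so the gene passed it through the miR-483-5p arrays alone, and its distance from background in the others is unknown. The brightest of the widest was PI15, a secreted protease inhibitor gene, at 1407.7 and 1036.4 for miR-483-5p, against 505.5 and 485.0 for the controls and 616.5 for miR-483-3p. In both genes each miR-483-5p array stood clear of the rest. The miR-483-3p array lay between the controls for GPR162 and above them for PI15. The transcription factor gene MYBL1 had 263.2 and 249.7 against 81.7, 106.5 and 136.1, here and below in the order miR-483-5p arrays, controls, miR-483-3p array. For HMGA2, an architectural chromatin protein gene of fetal tissue, the signals were 599.6 and 492.2 against 293.6, 248.4 and 204.8. HMGA2 was lowest in the miR-483-3p array, so its difference was larger from that array (1.28) than from the controls (0.93), and for MYBL1 the reverse held (0.78 and 1.20).

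Among the rest of the 15 with the widest gaps above, TGFBR1, the type I receptor of TGF-beta, had 411.5 and 342.2 against 187.0, 202.7 and 208.6, a difference of 0.82 (SE 0.12). NOG, a secreted antagonist of BMP ligands, had 78.4 and 78.0 against 45.6, 45.0 and 28.8. CCN1, a matricellular gene, had 885.4 and 868.0 against 543.1, 561.2 and 478.9. Each of the 3 had both miR-483-5p arrays at least 1.41-fold over the nearest other array on the log2(signal + 32) scale. PLK2, a polo-like kinase gene, had 211.0 and 162.1 against 89.0, 86.1 and 82.2, and GADD45A, a growth arrest gene, had 282.4 and 276.0 against 180.7, 151.8 and 183.6. STK17B, an apoptosis kinase gene, OPN3, an opsin gene, SP4, a zinc finger factor gene, GPM6A, a neuronal membrane protein gene, MIRLET7BHG, the let-7b host transcript, and LOC100506639 completed the 15. Their log2 differences against the other 3 arrays ran from 0.63 for SP4 to 1.03 for GPM6A. GPM6A, at 71.1 and 69.2 against 12.6, 29.9 and 13.7, and LOC100506639, at 51.9 and 64.1 against 25.9, 13.5 and 14.6, had other arrays mostly under 27.2, where the distance from background is again unknown. Over the 15 genes the differences from the miR-483-3p array lay between 0.53 and 1.42 and those from the controls between 0.51 and 1.40, and each had a limma adjusted p of 0.654.

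Among genes below, STK40, a pseudokinase gene, had signals of 141.4 and 171.1 against 377.9, 338.8 and 376.7. The log2 difference came to -1.08 (SE 0.12, n = 2 and 3), with a gap of 0.87 between the nearest arrays. AKT1S1, which encodes the mTORC1 inhibitor PRAS40, had 480.5 and 547.4 against 1048.2, 960.9 and 945.6. In both genes the controls and the miR-483-3p array were close together, and the miR-483-5p arrays stood well under them. ADIPOR1, an adiponectin receptor gene, had 717.8 and 959.9 against 1700.4, 1784.2 and 1521.6, a difference of -0.98 (SE 0.16). CSTB, an inhibitor of cathepsins, had 841.4 and 876.0 against 1514.5, 1474.0 and 1448.1. DANCR, a long noncoding RNA and snoRNA host, had 520.4 and 524.8 against 832.4, 1144.5 and 976.6.

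PTRHD1, CDKN2AIPNL, SGTA, a cochaperone gene, TIMP2 and ZDHHC9, a palmitoyltransferase gene, also stood among the 15 with the widest gaps below, with log2 differences from -0.71 for SGTA to -1.07 for ZDHHC9. The other 5, OSBP2, TSNARE1, TAMALIN, AGAP2 and COL12A1, had miR-483-5p signals of 9.8 to 19.9, under the filter's 27.2. For those 5 the distance from background is unknown, since no detection calls came with the values. In the other 3 arrays they ran from 46.2, in COL12A1, a collagen gene, to 119.3, in the scaffold gene TAMALIN. Over the 15 genes the differences from the miR-483-3p array lay between -0.64 and -1.44 and those from the controls between -0.74 and -1.18, with a limma adjusted p of 0.654 for each.

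**Figure D2:**
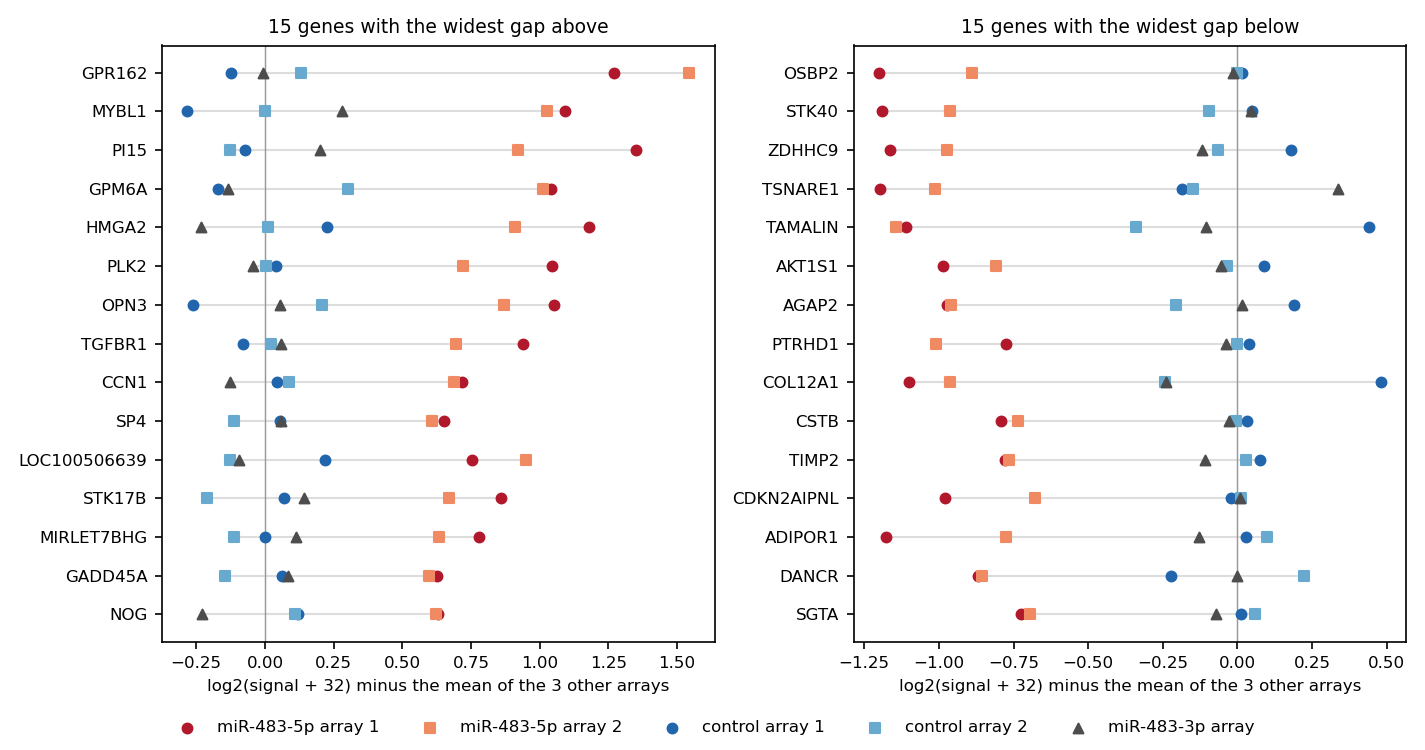
Log2(signal + 32) of each array minus the mean of the 3 other arrays (horizontal axis) for the 15 genes with the widest gap above (left) and below (right), 1 symbol per array, genes in order of the gap. Both miR-483-5p arrays stand apart from the controls and from the miR-483-3p array in all 30 genes, which is how the genes were chosen, and the miR-483-3p array lies nearer to the controls than to the miR-483-5p arrays.

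Probe sets of a gene other than its brightest were a check that the gene counts and the choice of the widest gaps did not use. They sit on the same 5 arrays and often on overlapping stretches of transcript, so they repeat the measurement and not the experiment. Of 6843 genes with more than 1 probe set over the filter, 1131 had the brightest probe set above, and in 272 of these (24.0%) the next brightest lay above too. It lay below in 53 (4.69%) and overlapped in 806. Without the first miR-483-5p array, which makes separation easier by construction, that 24.0% became 42.0%. Over all probe sets the count above rose from 5575 to 14749 in that setting. For the 936 genes whose brightest probe set lay below, the next brightest lay below in 299 (31.9%), above in 26 (2.78%) and overlapped in 611. That 31.9% became 41.0% without the first miR-483-5p array and 45.2% without the second. Where the brightest probe set overlapped, in 4776 genes, the next brightest was above in 9.34% and below in 12%. Sharing a side was therefore more frequent than that in both directions, and yet the larger share of second probe sets did not separate.

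The size of the difference was smaller in the second probe set. Its median was 0.08 on the log2 scale for genes with the brightest above, against 0.25 in the brightest, and -0.16 against -0.26 for genes below. The second probe set had a difference of the same sign in 63.8% of genes above and 77.5% of genes below, and in 57.6% of genes whose brightest probe set overlapped. In 79 genes both probe sets separated and pointed opposite ways. All probe sets over the filter lay above in 132 genes and below in 184, and of the 3122 genes with at least 3 such probe sets, 23 were above and 39 below throughout.

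**Figure D3:**
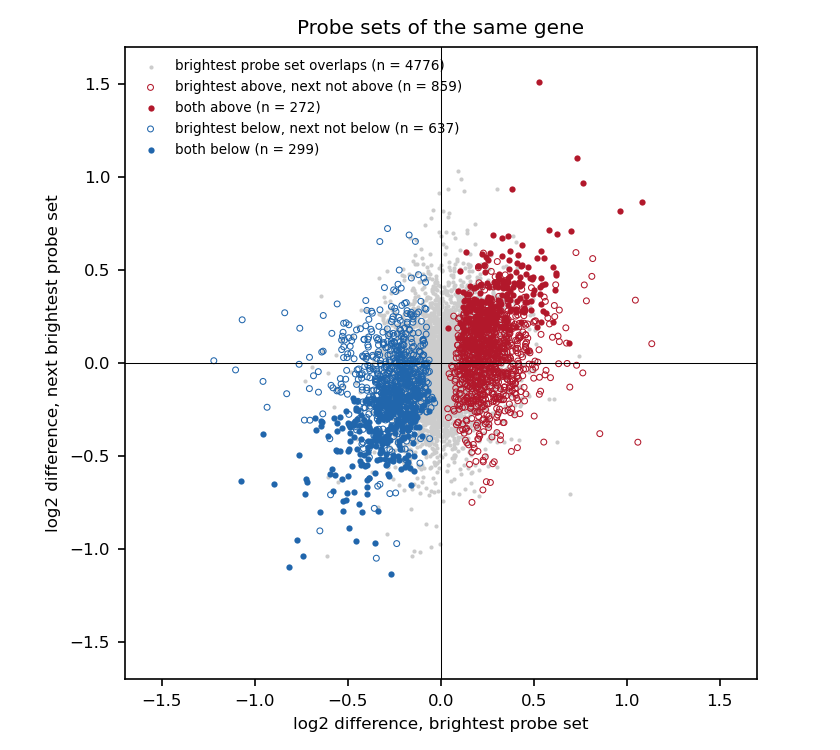
Log2 difference of the next brightest probe set (vertical axis) against that of the brightest (horizontal axis), miR-483-5p minus the other arrays, for 6843 genes with more than 1 probe set over the filter. Filled points, in which both probe sets lay above (272 genes) or below (299), fall in the upper right and lower left, and open points, in which only the brightest did, spread on both sides of 0 on the vertical axis.

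Several of the widest gaps rested on 1 probe set. Of the 15 genes above, 8 had a second probe set over the filter, and in 2 of these, OPN3 and CCN1, it lay above as well. OPN3 gave differences of 0.96 and 0.82, with 230.5 and 179.4 against 101.8, 107.7 and 95.3 in its second probe set, and CCN1 gave 0.70 and 0.71. In MYBL1 the second probe set was dim and had 73.5 and 23.2 against 76.3, 59.6 and 76.6, a difference of -0.43. PI15 gave 0.10 in its second, HMGA2 0.34, TGFBR1 0.56, SP4 0.14 and STK17B -0.05, each of them dimmer than the first and overlapping. Of the 15 genes below, 7 had a second probe set over the filter, and it lay below in STK40, AKT1S1 and TIMP2. STK40 had 149.1 and 162.6 against 253.4, 256.7 and 268.4 there, a difference of -0.63 (SE 0.10). AKT1S1 had 112.5 and 207.8 against 280.0, 292.5 and 214.7 in its second, a difference of -0.65 (SE 0.25). Its second miR-483-5p array thus lay only just under the miR-483-3p array. ZDHHC9 gave 0.23, CSTB -0.01, CDKN2AIPNL -0.17 and TSNARE1 -0.04 in dimmer second probe sets that overlapped.

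Some genes had all their probe sets over the filter on the same side. Those named in this paragraph were chosen by that rule, so their agreement is no check of the pattern. HMMR, a spindle and hyaluronan receptor gene, gave 0.63 and 0.69, and SGO2, which protects cohesin at centromeres, gave 0.43 and 0.41. CNN3, an actin-binding calponin gene, gave 0.37 and 0.60, with 2968.3 and 3006.7 against 2102.6, 2342.1 and 2480.9 in its brightest probe set. HNRNPA2B1, a splicing factor gene, gave 0.33, 0.58 and 0.47, although its brightest probe set left a gap of only 0.06 to the miR-483-3p array. UNC5C, a netrin receptor gene, gave 0.38 and 0.93. Its brightest probe set had only 48.1 and 51.5 against 39.0, 23.0 and 31.2, near the filter's 27.2, and its second was dimmer. The distance of both from background is unknown. TSHZ1, CABLES1 and PXDN also lay above in each. VAMP3, a SNARE of recycling endosomes, lay below with differences of -0.82, -1.10 and -1.07 in its 3 probe sets. Its brightest had 1099.4 and 1070.1 against 2159.6, 2065.2 and 1624.5, so the miR-483-3p array lay between the miR-483-5p arrays and the controls. RAB29, a Rab GTPase gene, gave -0.72 and -0.64, and EMC8, LRRC43, MREG, HCFC1R1 and RNF13 lay below in each as well.

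The host gene of the microRNA also separated, though its probe sets are listed for IGF2 and the readthrough gene INS-IGF2 together. All 3 lay above the other arrays. The brightest had 469.8 and 355.6 against 189.2, 204.7 and 236.1, with a gap of 0.53. The one with the widest gap, 1.28, had 108.4 and 86.1 against 13.3, 12.8 and 16.6, all 3 of the latter under 27.2.

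Gene lists chosen for the biology of this microRNA and tumour were read by their counts, set beside 13.6% above and 14.2% below over all genes measured. The lists were chosen with earlier results of these data known, so their shares are descriptions and not independent support. The largest shares were 22 of 34 genes of G2 and M phase above (64.7%) and 5 of 8 reported miR-483-5p targets below (62.5%). In no list did a member pass limma's test over all probe sets. The median log2 difference was 0.26 for the G2 and M phase list and -0.67 for the target list, against -0.00 over all genes measured.

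**Figure D4:**
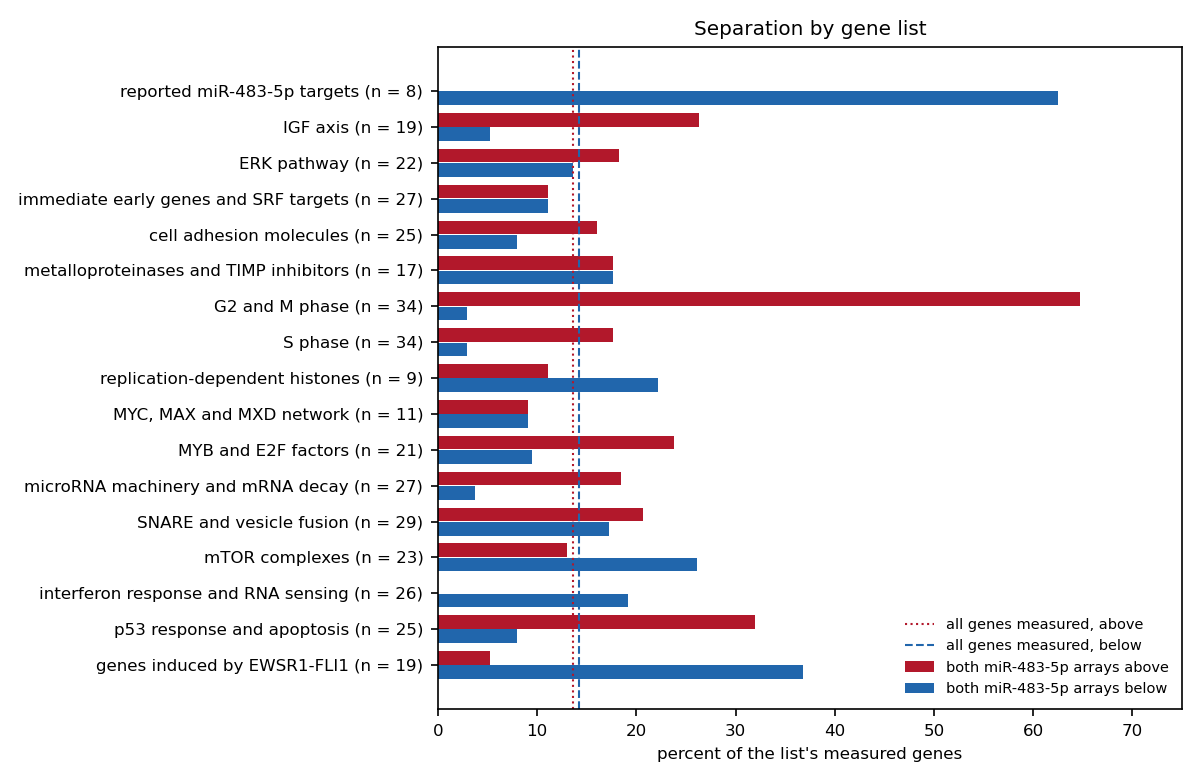
Percent of the measured genes of each list shown (horizontal axis) with both miR-483-5p arrays above (red) or below (blue) the other 3 arrays, with the number measured beside each list's name and dotted and dashed lines at the shares over all genes measured, 13.6% above and 14.2% below. The G2 and M phase bar above, 64.7%, and the reported target bar below, 62.5%, are the longest.

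Of 10 genes reported in earlier work as targets of miR-483-5p, 8 were measured, and 5 lay below the other arrays and none above. ALCAM, an adhesion molecule gene, had 463.5 and 462.3 against 884.2, 822.3 and 690.7, a difference of -0.74 (SE 0.13) that was -1.04 in a second probe set. TIMP2, a metalloproteinase inhibitor gene, had 1170.7 and 1180.4 against 2142.4, 2072.9 and 1879.8, with differences of -0.77, -0.95 and -0.32 in its 3 probe sets. In both genes the miR-483-3p array was the lowest of the others and still clear of the miR-483-5p arrays. MAPK3, which encodes the kinase ERK1, had 125.4 and 187.3 against 261.0, 268.3 and 275.7. RHOA, a GTPase of the actin cytoskeleton, had 2049.6 and 2688.5 against 3412.7, 3922.0 and 3789.1, a difference of -0.65, and -0.80 in its second probe set. ARHGDIA, which encodes a GDP dissociation inhibitor, gave -0.73, -0.70, -0.83 and -0.89 in its 4 probe sets, each below.

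In MAPK3, RHOA and ARHGDIA the first miR-483-5p array lay farther from the others than the second. The list's median per array showed the same, at -0.76 and -0.47 for the miR-483-5p arrays and between -0.03 and 0.04 for the rest, and with that first array left out the median difference was -0.47. SRF, a transcription factor gene, had 161.1 and 149.5 against 104.3, 101.8 and 155.1, so that the miR-483-3p array lay between the miR-483-5p arrays. Its second probe set lay below the others, with a difference of -0.20. FIS1, for mitochondrial fission, had 687.6 and 521.3 against 767.1, 771.8 and 683.6, and SOCS3, a cytokine signalling inhibitor gene, had 81.5 and 85.4 against 88.1, 80.5 and 103.7, and 0.25 in a second probe set that lay above. In their brightest probe sets these 3 overlapped, and MATN3, a cartilage matrix gene, was under the filter at 0.5 to 9.7.

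The ERK pathway, to which MAPK3 belongs, was split. Of its 22 genes 3 lay below, MAPK3 included (13.6%, against 14.2% of all genes measured). Above lay 4 (18.2%, against 13.6%), and the list's median was 0.01. GRB2, the adaptor that links receptors to RAS, had 790.7 and 819.7 against 1128.4, 1334.5 and 1104.7 and gave -0.54, -0.29 and 0.06 in its 3 probe sets. The kinase gene MAP2K1, the adaptor gene SHC1 and the feedback inhibitor genes DUSP6 and SPRY4 lay above with gaps of 0.05 to 0.08. The second probe set of SHC1 gave -0.07 and those of DUSP6 gave 0.28 and 0.16, all overlapping.

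Among 17 metalloproteinases and inhibitors, 3 lay below and 3 above. TIMP3, a second inhibitor that binds the matrix, had 796.5 and 812.5 against 1066.4, 1149.4 and 1058.2, a difference of -0.42 (SE 0.10), with -0.44, -0.34 and -0.47 in its other probe sets. The protease gene ADAMTS1 had 167.4 and 200.9 against 98.5, 104.8 and 134.3, and its second probe set lay above with 0.72. ADAM10 and ADAM9 lay above by gaps of 0.09 and 0.02, and their other probe sets overlapped, with differences from -0.12 to 0.03. Of 25 adhesion molecules, 2 lay below, ALCAM and ITGB3, and 4 above. The integrin gene ITGB3 had a gap of 0.05, overlapped under median centring and under quantile normalization, and gave 0.24, 0.30 and -0.06 in its other probe sets. MCAM, an adhesion molecule gene, had 405.8 and 479.1 against 340.4, 325.4 and 357.2, a difference of 0.34, and 0.03 in its second probe set.

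Immediate early genes and SRF targets, 27 measured, had 3 above and 3 below. CCN2, the close relative of CCN1, had 668.2 and 598.4 against 399.2, 450.2 and 394.2, a difference of 0.58 (SE 0.12). VCL, which links adhesions to actin, had 1282.9 and 1351.7 against 1012.3, 972.5 and 1030.9, and -0.48 in a second, dim probe set. KLF2, a transcription factor gene, had 175.1 and 169.7 against 690.7, 532.2 and 233.3. KLF2 differed by -1.64 from the controls and by -0.38 from the miR-483-3p array, and by 0.01 from all 3 in its second probe set, so its place below all others rests on a small step from the miR-483-3p array.

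Genes of G2 and M phase, which build the spindle, join it to chromosomes and drive division, lay above the other arrays in 22 of 34 cases. Of the list 12 were higher at an unadjusted p under 0.05, where 3.93% of all genes were, and 1, the spindle assembly factor gene TPX2, lay below with a gap of 0.04. CENPE, a kinetochore motor gene, had 387.8 and 368.1 against 232.5, 226.0 and 269.3, a difference of 0.58 (SE 0.12). HMMR had 739.0 and 601.5 against 427.7, 394.3 and 442.2. ASPM, which acts at spindle poles, had 2180.8 and 2190.6 against 1439.9, 1499.2 and 1822.8, with 0.07 and 0.22 in 2 dimmer probe sets. KIFC1, a minus-end spindle motor gene, had 508.9 and 507.2 against 164.6, 230.9 and 403.8. In ASPM and KIFC1 the miR-483-3p array lay between the miR-483-5p arrays and the controls, and in HMMR and CENPE nearer to the controls.

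The checkpoint kinase gene BUB1 and the cyclin gene CCNA2 gave differences of 0.40 and 0.39 in their brightest probe sets. BUB1 had 414.2 and 663.3 against 579.8, 629.5 and 574.5 in its second, a difference of -0.17, and gave 0.16 and -0.16 in the dimmest. CCNA2 gave 0.20 in its second, and none of these separated. CCNB1, TOP2A, PLK1 and MKI67, which is widely used as a proliferation marker, overlapped, with differences from -0.12 for PLK1 to 0.22 for MKI67. MKI67 had 500.8 and 573.7 against 385.9, 401.9 and 610.4, with the miR-483-3p array the highest. The list's median per array stood at 0.36 and 0.21 for miR-483-5p, against -0.12 and -0.02 for the controls and 0.15 for miR-483-3p. The median difference was 0.34 from the controls and 0.13 from the miR-483-3p array, in contrasts that share the miR-483-5p arrays. With median centring 17 of the 34 lay above, and 16 when all probe sets of a gene were averaged. In bulk RNA a larger share of cells in division and more of each transcript per cell cannot be told apart. The GAPDH ratio stood at 1.094 and 1.102, then 1.064 for the miR-483-3p array, then 1.016 and 0.996 for the controls. By group it follows the order of the list's medians. Within each pair, however, the array with the higher ratio had the lower list median. The part of the ratio in these medians was not tested.

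Promoters of G2 and M phase genes are known to carry the letters of the CHR, the cell cycle homology region through which the DREAM and MYB-MuvB complexes act. The short form TTTGAA, or TTCAAA on the other strand, was searched in the RefSeq promoters of GRCh38.p14, 250 bases before the start to 50 after. It was found in 18 of the 28 listed genes with a promoter in that table (64.3%), in 10.9% of the promoters of all genes measured and in 15.4% of all 27305 promoters. CCAAT, read on both strands as CCAAT or ATTGG, was found in 82.1% of the list and 36.6% of genes measured. Among the 22 genes above, 19 had a promoter in the table and 13 of these held the CHR letters (68.4%), so that the share was close to that of the whole list. For 4 genes above, the promoter is printed to show where the letters stand, with a CHR match in capitals. There are 2 adjoining matches in HMMR, 1 each in ASPM and KIFC1, and none in CENPE. The promoters of CCNA2 and BUB1, also above, held no match to this short form either and are not printed. Only that exact form was searched, so a promoter without a match may still hold a CHR with other letters. A match is a run of letters and not a measured site.
HMMR, chr5:163460382-163460681, plus strand: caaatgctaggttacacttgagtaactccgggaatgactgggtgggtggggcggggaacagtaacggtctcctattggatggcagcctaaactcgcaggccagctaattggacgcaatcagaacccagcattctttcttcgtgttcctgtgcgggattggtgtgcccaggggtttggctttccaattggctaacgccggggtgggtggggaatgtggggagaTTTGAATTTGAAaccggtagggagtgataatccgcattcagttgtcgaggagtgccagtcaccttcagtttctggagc
ASPM, chr1:197146620-197146919, minus strand: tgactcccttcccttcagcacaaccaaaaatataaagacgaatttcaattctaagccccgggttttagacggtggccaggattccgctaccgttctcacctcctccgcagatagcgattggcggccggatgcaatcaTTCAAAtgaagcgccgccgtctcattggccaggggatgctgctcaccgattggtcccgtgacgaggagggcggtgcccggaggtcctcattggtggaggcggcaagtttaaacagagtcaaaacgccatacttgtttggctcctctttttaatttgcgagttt
KIFC1, chr6:33391573-33391872, plus strand: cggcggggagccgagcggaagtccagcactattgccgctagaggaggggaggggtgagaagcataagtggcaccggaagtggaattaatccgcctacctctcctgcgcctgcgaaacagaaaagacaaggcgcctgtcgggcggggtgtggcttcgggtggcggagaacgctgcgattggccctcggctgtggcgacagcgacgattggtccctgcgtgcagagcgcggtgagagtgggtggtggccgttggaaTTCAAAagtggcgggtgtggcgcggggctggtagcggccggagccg
CENPE, chr4:103198294-103198593, minus strand: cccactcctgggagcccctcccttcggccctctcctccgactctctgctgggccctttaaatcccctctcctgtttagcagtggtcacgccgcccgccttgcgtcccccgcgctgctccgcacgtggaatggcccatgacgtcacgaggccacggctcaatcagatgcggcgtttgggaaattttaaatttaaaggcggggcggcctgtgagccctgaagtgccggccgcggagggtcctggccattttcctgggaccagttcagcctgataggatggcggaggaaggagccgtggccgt

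**Figure D5:**
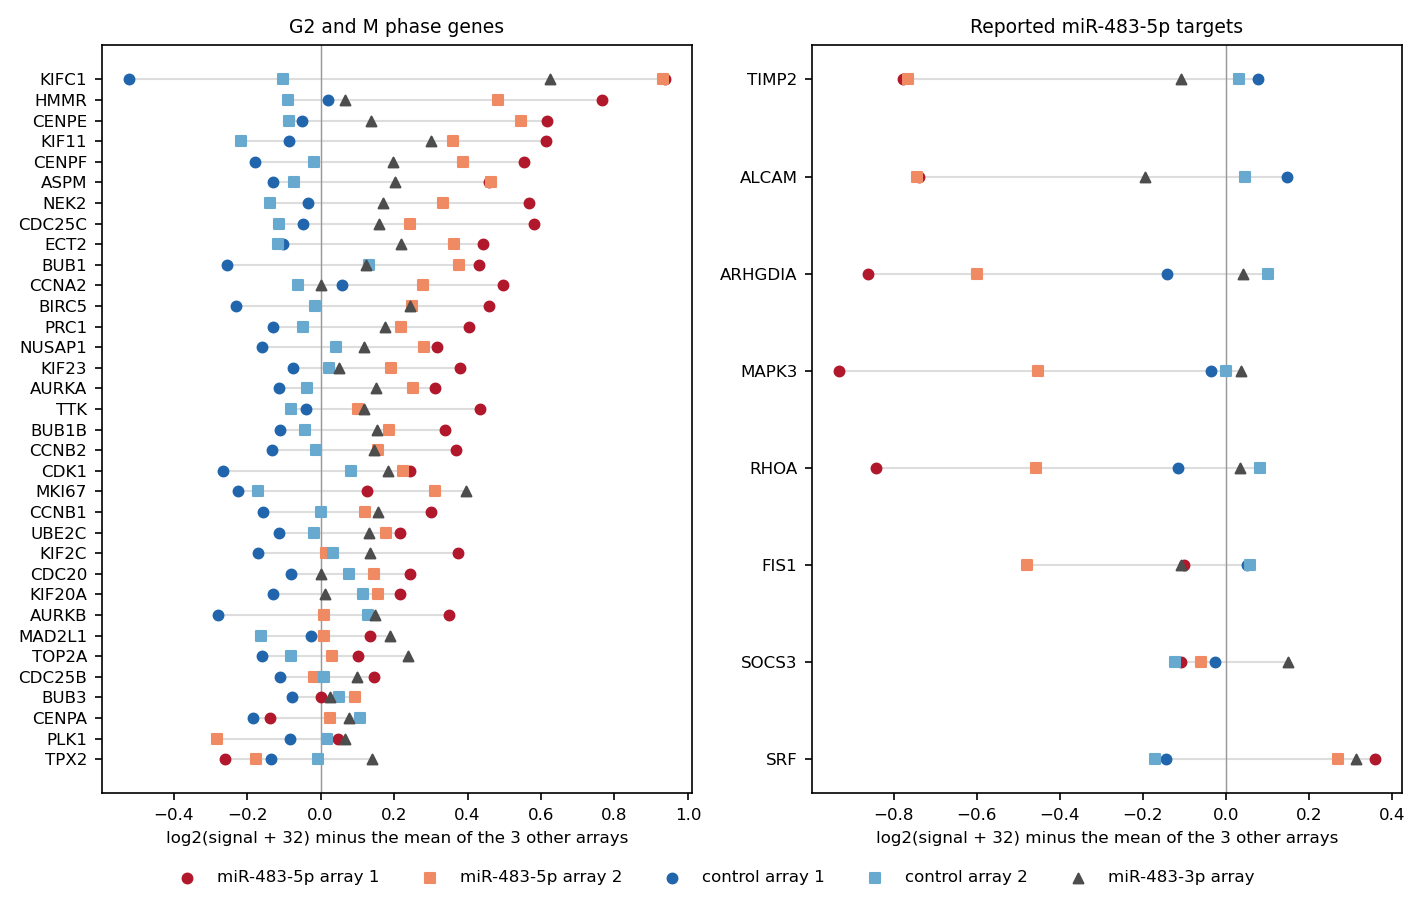
Log2(signal + 32) of each array minus the mean of the 3 other arrays (horizontal axis) for the 34 genes of G2 and M phase (left) and the 8 reported targets measured (right), 1 symbol per array, genes in order of the difference. In the G2 and M panel the miR-483-3p triangle often lies between the miR-483-5p and the control symbols, whereas among the targets it lies with the controls in MAPK3, RHOA and ARHGDIA.

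Of the factors that act on such promoters, 5 of 21 MYB and E2F family genes and partners lay above (23.8%) and 2 below (9.52%). MYB had 509.5 and 356.5 against 268.8, 254.4 and 242.5, a difference of 0.68 (SE 0.16). The pocket protein genes RB1 and RBL1, which restrain E2F, were both higher by 0.29 in their brightest probe sets. RB1 gave -0.53 in its second, with 28.7 and 90.7 against 76.5, 96.8 and 106.8, and RBL1 gave -0.02 and 0.15 in its others, all of which overlapped. LIN37, a subunit of DREAM, had 61.2 and 67 against 97.2, 89.2 and 98.5.

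In S phase genes and histones the list medians had opposite signs against the controls and against miR-483-3p. Of 34 S phase genes, 6 lay above and 1 below, and the list's median was 0.20 from the controls and -0.09 from the miR-483-3p array. RRM1, a subunit of ribonucleotide reductase, had 3527.1 and 3456.0 against 2259.0, 2572.0 and 3066.4, with 0.01 in its second probe set, and the thymidine kinase gene TK1 lay below at 958.0 and 882.6 against 1223.9, 1025.4 and 1193.1. Of 24 replication-dependent histone genes 9 were measured, with 1 above and 2 below. H2AC6 had 380.2 and 288.7 against 972.5, 666.5 and 422.5, and the list's median was -0.50 from the controls and 0.12 from the miR-483-3p array.

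In the IGF axis 5 of 19 genes lay above (26.3%) and 1 below (5.26%), with a median of 0.19. The binding protein genes IGFBP5 and IGFBP6 had 228.0 and 178.3 against 143.2, 131.8 and 140.6, and 65.6 and 76.3 against 39.6, 48.4 and 53.5. HMGA2, the receptor adaptor gene GRB10 and the RNA helicase gene DHX9 were the other 3 above. DHX9 gave 0.23 in its brightest probe set and -0.24 and -0.62 in its others, which overlapped, and GRB10 gave 0.28, 0.06 and 0.15. IGFBP5 gave 0.46, 0.09, 0.06 and 0.39. IGFBP3 had 493.4 and 411.3 against 709.4, 667.0 and 506.8 and overlapped once the arrays were centred on their medians. Its second probe set lay below with -0.76.

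Of 25 genes of the p53 response and apoptosis, 8 lay above (32%) and 2 below (8%), with a median of 0.04. PMAIP1, which encodes the BH3 protein NOXA, had 642.2 and 668.9 against 513.4, 476.1 and 469.1, a difference of 0.41 (SE 0.10), and 0.54 in its second probe set. GADD45A and GADD45B, both growth arrest genes, were higher by 0.61 and 0.29, and the death receptor gene FAS by 0.20. GADD45B lay above in its other probe sets too, with 0.41 and 0.57, and FAS gave -0.01 to 0.11 in its others, of which 1 of 4 separated. The count above was 5 when all probe sets of a gene were averaged. Without the second miR-483-5p array 12 lay above and 7 below, but leaving out an array makes separation easier by construction. Over all 54613 probe sets, 11878 then lay above and 17902 below, against 5575 and 7054 with every array.

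In the list named for genes induced by EWSR1-FLI1, 7 of 19 lay below (36.8%) and 1 above, with a median of -0.03. Whether each listed gene, LOX among them, is induced by the fusion in these cells was not analysed here. The neuropeptide gene CCK had 1221.1 and 1102.9 against 1721.6, 1450.3 and 1428.4, a difference of -0.39. The phosphatase inhibitor gene PPP1R1A differed by -0.31 and the lipase gene LIPI by -0.40. CCND1, cyclin D1, was the one above, at 6045.3 and 5716.7 against 4351.0, 4566.3 and 5018.6, with 0.08 in its second probe set. The median was -0.13 without the first control array. With median centring 4 lay below in place of 7, and NKX2-2 and GLI1 were among those that then overlapped.

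The remaining lists held members on either side. Of 26 genes of the interferon response and RNA sensing, 5 lay below (19.2%) and 0 above, among them IFI44L, an interferon-induced gene, at 21.5 and 16.0 against 37.3, 51.4 and 44.8, and ISG15, a ubiquitin-like modifier gene, with -0.37. The miR-483-5p signals of IFI44L lay under the filter's 27.2, where the distance from background is unknown. Of 27 genes of the microRNA machinery and mRNA decay, 5 lay above (18.5%), and the decapping enzyme gene DCP2 had 1137.9 and 934.7 against 510.2, 561.1 and 793.2. DCP2 gave 0.73, 0.59, 0.25 and 0.32 in its 4 probe sets, of which only the brightest separated. Of 29 SNAREs and fusion factors, 6 lay above and 5 below, with VAMP3 among the latter and VAMP1 among the former with 0.43 (0.05 in its second probe set). Of 23 genes of the mTOR complexes, 6 lay below (26.1%) and 3 above, AKT1S1 below and the S6 kinase gene RPS6KB1 above with 0.40 (0.21 and 0.13 in its others). Of 11 genes of the MYC network, 1 lay on each side.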

How the data were processed

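Labelled cRNA was hybridised to 5 Affymetrix 3' expression arrays of the HG-U133 Plus 2 type, per the labels' protocols. The deposited values are linear intensity, 1 per probe set and array, which the authors had scaled to a trimmed mean of 150. GCOS and Partek are the tools listed, per the submitters' processing notes, and no signal algorithm or version is given in the sources used here. Detection calls were not used here. The 62 control probe sets were left out. Of the other 54613, 41091 have a single gene symbol in the platform annotation, 1801 have several and 11721 have none, and 41037 of the first kind matched RefSeq (GRCh38.p14). Genes were named from probe sets with 1 symbol and read through the brightest, if its mean was over the 40th percentile of all.

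The scale was log2(signal + 32), and the linear models were those of limma 3.58.1 (R 4.3.3), miR-483-5p against the other arrays (3 residual degrees of freedom), over all probe sets with Benjamini-Hochberg adjustment, and with 1 mean per group for the contrasts with control and with miR-483-3p (2 degrees). Tests were two-sided with a threshold of 0.05. The fit was checked on simulated data whose shifts were larger than the differences of the genes named, so the check does not cover differences of their size. Genes were named by rule: the 15 widest gaps each way, the 10 genes each way whose probe sets all lay on one side, up to 6 separating members per list, and the reported targets. RefSeq promoters were searched for motif letters, and figures drawn with matplotlib 3.10.9. The members and lists were chosen with earlier results of these data known. Alternatives were median centring, quantile normalization, pseudocounts of 1 and 100, filters, averaging or choosing probe sets, leaving out each array, a block for repeats, and an intensity trend in the variance prior. Median centring together with that trend was added after seeing the data. Promoter letters of the genes above and below are not compared in the text, since under 80% of genes below (79.4%) had a promoter in the table. The result of 1 further gene list is not reported here.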

Additional observations from a re-analysis of the deposited data

How the results depend on the processing

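The count of 0 probe sets past limma's test was the same in 18 alternative settings, where the lowest adjusted p ran from 0.223 to 0.832. The 5575 probe sets above became 2992 with a filter at the 60th percentile, 2356 with the brightest and 1984 when a gene's probe sets were averaged, and the 7054 below became 4366 and 3144 with filters at the 40th and 60th percentiles, 2742 with the brightest and 2887 with the mean. Fewer probe sets enter each of these by construction. Leaving out 1 array, which makes separation easier by construction, gave 8458 to 14749 above and 10371 to 17902 below, and a share of next probe sets also above of 26.9% to 42.0%. In the 18 lists the count above moved by over 1.5 times in 5 to 14 lists when 1 array was left out, in 6 with median centring and in 3 with quantile normalization. Of the 139 genes named by rule, MATN3, under the filter, changed the sign of its difference of -0.02, to 0.000 with median centring and 0.003 with quantile normalization, and ran from -0.202 to 0.157 without 1 array (the cause was not tested). With median centring 21 of the 135 named genes that separate no longer did so, and 5 with quantile normalization. The replicate block, first arrays against repeats, gave 0 calls with a lowest adjusted p of 0.623 and kept the direction of all 139 named genes. The labels do not say that a repeat of one group belongs with a repeat of another, so the arrays share only a number. Precision is limited by there being 2 arrays against 3, and without detection calls the distance of dim genes from background is unknown.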
